A study of Homo sapiens with 8 samples.

Results

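The genes described here are RAG1, RAG2, DNTT, IGLL1 and the CD1 family, CD1A, CD1B, CD1C, CD1D and CD1E, which mark immature and cortical thymocytes. They were picked by symbol as 9 of the 64252 genes in each count table, and all 9 passed the filter on low counts in both cell lines. RNA sequencing was performed on 6T-CEM and J.gamma1, a pair of established human T-cell acute lymphoblastic leukemia (T-ALL) lines, with either a control short hairpin RNA (sh-NC) or one directed at LDB1 (sh-LDB1), in 4 groups of 2 libraries. LDB1 is an adaptor protein without DNA-binding activity of its own that is brought to DNA by partner factors and holds enhancers and promoters together. 6T-CEM derives from the CCRF-CEM line and J.gamma1 is a Jurkat derivative that lacks phospholipase C gamma 1. In the study's methods the shRNAs were carried by the lentiviral vector pLKO.1 and infected cells were selected with puromycin, in the control groups as well. Which of the study's shRNAs against LDB1 was sequenced, and whether the 2 libraries of a group came from separate cultures, is not given in the sources used here. The p-values below therefore measure the spread between these libraries, which may be technical. Each line was deposited in a table of its own, so that the line and the table cannot be told apart.

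V(D)J recombination assembles the genes of T-cell and B-cell antigen receptors from separate gene segments. The RAG1 and RAG2 proteins form the recombinase that cuts the DNA beside these segments, and RAG1 carries the active site. Terminal deoxynucleotidyl transferase, the product of DNTT, adds untemplated nucleotides to the cut ends before they are ligated. IGLL1 (also called lambda 5) and VPREB1 together make the surrogate light chain of the pre-B-cell receptor, and IGLL1 transcripts are also seen in early thymocytes and T-ALL. CD1 proteins resemble MHC class I molecules, pair with beta-2-microglobulin and present lipids. CD1a is a classical surface marker of the cortical thymocyte stage, CD1b and CD1c are found on the same cells and on dendritic cells, CD1d presents lipids to natural killer T cells, and CD1e stays inside the cell and helps to load lipids.

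The coordinates are those of GENCODE release 44 on GRCh38, the build of the files (hg38). RAG1 (ENSG00000166349, chr11:36510372-36593156, plus strand) and RAG2 (ENSG00000175097, chr11:36575574-36598279, minus strand) are neighbors on chromosome 11. DNTT (ENSG00000107447) lies at chr10:96304409-96338564 on the plus strand and IGLL1 (ENSG00000128322) at chr22:23573125-23580302 on the minus strand. The CD1 genes form a cluster on chromosome 1, with CD1D (ENSG00000158473, chr1:158178030-158186427), CD1A (ENSG00000158477, chr1:158254424-158258269), CD1C (ENSG00000158481, chr1:158289923-158294774) and CD1E (ENSG00000158488, chr1:158353696-158357553) on the plus strand. CD1B (ENSG00000158485, chr1:158327951-158331531) lies on the minus strand between CD1C and CD1E.

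LDB1 is known to reach DNA in blood cells through complexes that hold E proteins, which bind E-boxes, and GATA factors. Promoter sequences of 300 bases, 250 before and 50 after a transcription start, were therefore read from RefSeq (GRCh38.p14). Those of IGLL1, DNTT, RAG2 and CD1A are printed 5′ to 3′ on the strand of the gene, with each E-box (CANNTG) and each GATAA match on either strand in capitals. RefSeq windows were matched for 8 of the 9 genes, all but CD1B.
IGLL1 (chr22:23580241-23580540, minus strand): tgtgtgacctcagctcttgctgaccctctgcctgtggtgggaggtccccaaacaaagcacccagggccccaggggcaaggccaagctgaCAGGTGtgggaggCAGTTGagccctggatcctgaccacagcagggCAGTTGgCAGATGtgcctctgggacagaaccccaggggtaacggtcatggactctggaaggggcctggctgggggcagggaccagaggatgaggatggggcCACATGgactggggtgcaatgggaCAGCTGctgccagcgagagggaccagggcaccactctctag
DNTT (chr10:96304184-96304483, plus strand): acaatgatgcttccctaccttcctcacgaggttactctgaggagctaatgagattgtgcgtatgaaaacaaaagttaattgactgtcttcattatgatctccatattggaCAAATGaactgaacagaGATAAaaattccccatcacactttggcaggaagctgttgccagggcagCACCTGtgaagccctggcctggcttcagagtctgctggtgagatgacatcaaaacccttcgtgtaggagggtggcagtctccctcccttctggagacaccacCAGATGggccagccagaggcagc
RAG2 (chr11:36598187-36598486, minus strand): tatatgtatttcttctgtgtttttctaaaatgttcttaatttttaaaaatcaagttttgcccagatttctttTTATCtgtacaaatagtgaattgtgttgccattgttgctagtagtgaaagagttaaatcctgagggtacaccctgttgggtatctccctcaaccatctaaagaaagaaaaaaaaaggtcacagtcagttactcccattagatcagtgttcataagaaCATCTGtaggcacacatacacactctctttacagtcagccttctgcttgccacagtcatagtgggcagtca
CD1A, the start annotated in GENCODE (chr1:158254174-158254473, plus strand): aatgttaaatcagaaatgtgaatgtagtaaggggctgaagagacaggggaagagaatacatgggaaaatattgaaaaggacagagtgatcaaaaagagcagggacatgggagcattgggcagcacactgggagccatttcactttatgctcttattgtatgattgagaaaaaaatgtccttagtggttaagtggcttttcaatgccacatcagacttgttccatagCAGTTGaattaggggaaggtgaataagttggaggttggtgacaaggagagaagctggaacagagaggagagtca

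The IGLL1 window held 6 E-boxes, a number reached by 0.615% of the 35116 promoter windows of that length, and no GATAA. It also held 2 matches of TGTGGT, a RUNX-type sequence, and 1.31% of all windows hold at least as many. The DNTT window held 3 E-boxes, where 15.3% of windows hold at least as many, and 1 GATAA, which 22.7% of windows hold. The RAG2 window and the printed CD1A window each held 1 E-box, as 68.7% of windows hold at least 1, and the RAG2 window had 1 GATAA on the opposite strand. Among windows that are not printed, a second CD1A window upstream held 3 E-boxes and 1 GATAA, and the CD1D windows held 1 and 0 E-boxes and no GATAA. CD1C held 4 E-boxes (5.58% of windows hold as many), whereas the CD1E window held 0. RUNX-type TGTGGT, ETS-type GGAAG and MYB-type AACNG were counted in every window, and the IGLL1 value for TGTGGT was singled out because it is rare. TGTGGT also occurred 1 time in the upstream CD1A window and in the CD1E window (13.1% of windows hold as many). The upstream CD1A window and the CD1C window each held 4 GGAAG (6.52%). AACNG occurred 3 times in the IGLL1, DNTT and 1 of the CD1D windows (23.7%). The RAG1 window is not shown because it lies 0.1 kb from the start of TRAF6, and GENCODE has 6 RAG1 transcripts, of which 4 start within 1 kb of that point and the last starts 57.6 kb further on. These matches are a description of the letters in the windows and say nothing of binding.

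The level of LDB1 was examined first. Levels between libraries are given in CPM, the usual unit in which a count is scaled to the size of its library, here corrected with TMM factors. In 6T-CEM, LDB1 stood at 107 and 111 CPM in the sh-NC libraries and at 37.0 and 34.9 CPM after knockdown. In J.gamma1 it stood at 60.1 and 58.7 CPM with sh-NC and at 33.2 and 30.7 CPM with sh-LDB1. LDB1 was thus lower in every sh-LDB1 library, by a log2 fold change of -1.60 (SE 0.07) in 6T-CEM and -0.89 (SE 0.08) in J.gamma1, and the 2 lines differed in how far it was lowered. The library totals lay between 26160492 and 30604977 counts, with a biological coefficient of variation of 9.68% for the 6T-CEM fit and 9.16% for the J.gamma1 fit. T-lineage markers (CD3D, CD3E, CD3G, CD247, CD2, CD5, CD7, TRAC, TRBC1 and TRBC2) summed to 1756 to 2740 CPM per library. None of the 10 was at 0 in any library, but their levels were uneven. CD2 was scarce in 6T-CEM, between 0.309 and 0.489 CPM (9 to 14 counts per library), against 3.71 to 6.20 CPM in J.gamma1. TRAC was low in the 6T-CEM control libraries (2.27 and 2.30 CPM) and reached 21.5 and 20.2 CPM in the knockdown libraries of that line. Of 5 B-lineage markers, which summed to 1.61 to 5.57 CPM, MS4A1 and CD22 were at or near 0, while PAX5 had 45 to 88 counts in 6T-CEM and EBF1 86 to 153 counts in J.gamma1. Of 10 myeloid and dendritic markers, which summed to 0.252 to 2.95 CPM, at least 3 were at 0 in each library. Other genes known from B cells, which are held in the pre-receptor list below, were present: CD79A stood at 23.2 to 75.6 CPM over the 8 libraries, CD79B at 3.32 to 8.20 CPM and VPREB1 at 15.4 to 35.3 CPM in 6T-CEM. The part of these transcripts in the results below was not tested.

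To describe how abundant the 9 genes were before knockdown, levels were set per length of exon (RPKM, the CPM divided by the length of the exons in kilobases). IGLL1 was the most abundant of them in both control groups, at 358 ± 20.3 RPKM in 6T-CEM and 662 ± 34.8 RPKM in J.gamma1 (SD, n = 2 libraries each, as for all levels below), rank 77 of 12030 and rank 30 of 12855 protein-coding genes. In 6T-CEM sh-NC the order was IGLL1, RAG1 (12.4 RPKM), CD1C (7.96), CD1E (6.63), CD1A (4.14), RAG2 (2.62), CD1B (1.47), DNTT (0.783) and CD1D (0.551), and no neighbors in this order overlapped between their libraries. In J.gamma1 sh-NC the order was IGLL1, CD1E (48.2 RPKM), CD1B (24.1), DNTT (23.0), CD1A (18.1), RAG2 (5.04), CD1D (4.77), RAG1 (4.67) and CD1C (1.74), where the libraries of RAG2, CD1D and RAG1 overlapped from neighbor to neighbor. DNTT thus came next to last in 6T-CEM but ahead of CD1A in J.gamma1, and CD1C led the CD1 genes in 6T-CEM but came last in J.gamma1. The plot of levels by library shows the value of each gene in every library.

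**Figure D1:**
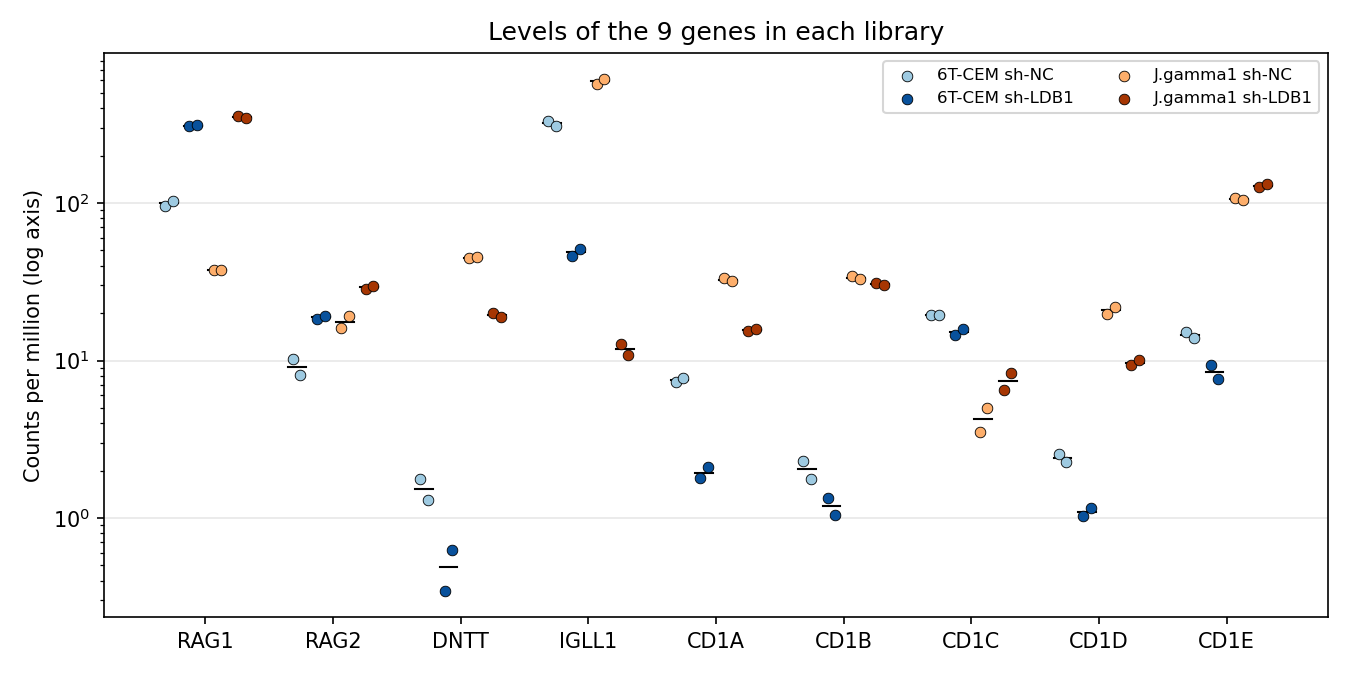
CPM (log axis) of the 9 genes in each of the 8 libraries, by group, with a black bar at the mean of the 2 libraries. RAG1 is high in all sh-LDB1 libraries (307 to 357 CPM), IGLL1 is highest in the J.gamma1 sh-NC libraries (572 and 616 CPM) and lowest in the J.gamma1 sh-LDB1 libraries (12.8 and 10.9 CPM), and DNTT is under 2 CPM in every 6T-CEM library.

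After LDB1 knockdown the recombinase genes were higher and IGLL1, DNTT, CD1A and CD1D were lower in both lines, whereas CD1C and CD1E were lower in 6T-CEM and higher in J.gamma1. In 6T-CEM 2 of the 9 genes rose and 6 fell at an adjusted p under 0.05, where 15.1% and 16.2% of all 16059 genes tested rose and fell. With a log2 fold change beyond 1 as well, the counts were 2 and 4 of 9, against 2.74% and 2.39% of all genes. In J.gamma1 4 rose and 4 fell, against 25.0% and 26.5% of 17215 genes, and 1 and 4 of 9 also passed the fold threshold, against 6.67% and 7.19%. The 9 genes were chosen with these contrasts known, so these counts and the values below are a description and no p is given for any of them. In bulk RNA, fewer cells with a transcript and less of it per cell cannot be told apart. Where the libraries of a line are said below not to overlap, or to lie all on 1 side, 2 libraries stand against 2. An exact permutation test cannot go below p = 0.333 there, so such an order alone is no support for a change. The share of all genes without overlap is not given here.

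**Figure D2:**
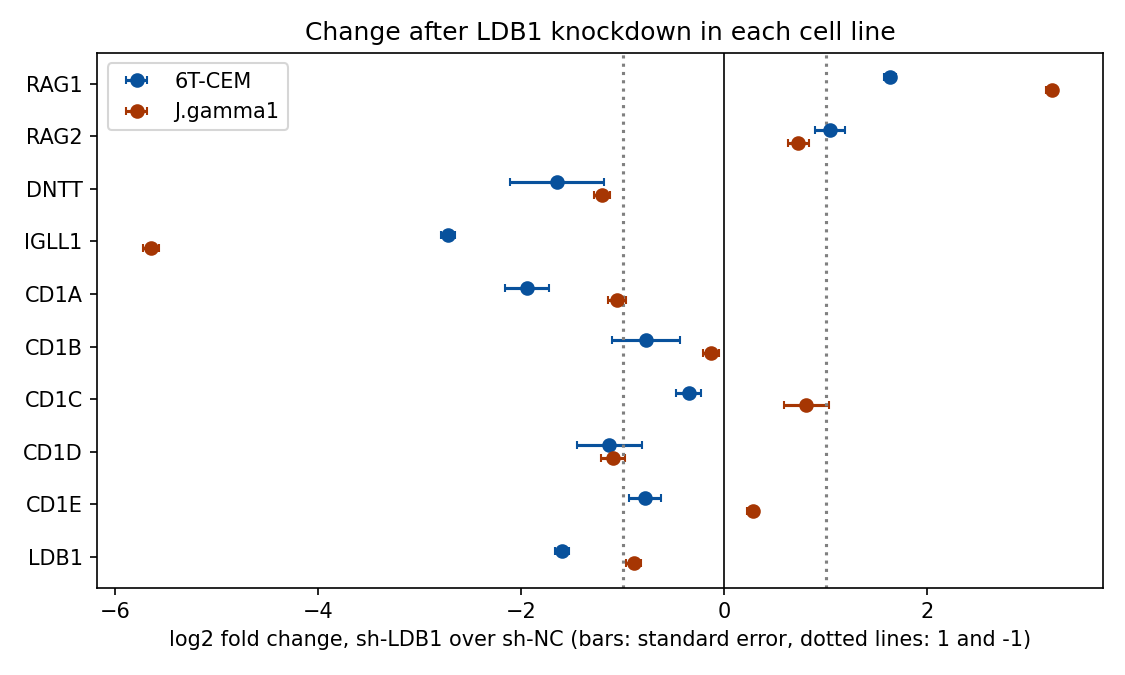
Log2 fold change of sh-LDB1 over sh-NC for the 9 genes and LDB1 in 6T-CEM (blue) and J.gamma1 (brown). Points are estimates from 2 against 2 libraries, bars are standard errors, and dotted lines mark 1 and -1. RAG1 lies at 1.64 and 3.22 and IGLL1 at -2.72 and -5.64, while CD1C and CD1E lie on opposite sides of 0 in the 2 lines.

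RAG1 rose from 96.0 and 103 CPM in the sh-NC libraries to 307 and 312 CPM after knockdown of LDB1 in 6T-CEM. In J.gamma1 it rose from 37.7 and 37.6 CPM to 356 and 345 CPM. The control level was lower in J.gamma1 and the level after knockdown similar in the 2 lines, at 310 ± 4.08 and 351 ± 8.26 CPM. The log2 fold change was 1.64 (SE 0.06) in 6T-CEM, a 3.11-fold rise, and 3.22 (SE 0.05) in J.gamma1, a 9.35-fold rise. By RPKM RAG1 moved from rank 3658 to rank 1108 of the protein-coding genes in 6T-CEM, while in J.gamma1 it moved from rank 6871 to rank 809.

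RAG2 stood at 10.2 and 8.12 CPM with sh-NC and at 18.3 and 19.3 CPM with sh-LDB1 in 6T-CEM. In J.gamma1 the values were 16.2 and 19.1 CPM with sh-NC and 28.5 and 29.9 CPM with sh-LDB1. The groups did not overlap in either line, and the log2 fold changes were 1.04 (SE 0.15) and 0.73 (SE 0.10). Because RAG1 gained more than RAG2, the ratio of RAG1 to RAG2 in RPKM went from 4.81 ± 1.02 to 7.15 ± 0.152 in 6T-CEM, and J.gamma1 had 0.933 ± 0.110 before and 5.22 ± 0.300 after knockdown.

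The RAG2 values carry an uncertainty of annotation. RAG1 and RAG2 share 588 exon bases on opposite strands, 7.29% of the RAG1 exons and 16.8% of the RAG2 exons, and whether the counting used the strand is not given in the sources used here. Spread evenly over the RAG1 exons, that stretch would hold 442 of the counts RAG1 gained in 6T-CEM and 660 of those gained in J.gamma1, while RAG2 gained 279 and 333. The part of shared reads in the RAG2 values was not tested, and the rise of RAG2 is uncertain for that reason. IFTAP, which shares 372 exon bases with RAG2, had at most 71 counts in any library.

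DNTT was low in 6T-CEM, at 1.77 and 1.30 CPM with sh-NC (46 and 35 counts) and 0.343 and 0.629 CPM with sh-LDB1 (10 and 18 counts). In J.gamma1 it fell from 44.9 and 45.3 CPM to 20.1 and 18.9 CPM. The libraries did not overlap in either line, and the log2 fold change was -1.65 (SE 0.46) in 6T-CEM and -1.20 (SE 0.08) in J.gamma1. The standard error in 6T-CEM was larger because DNTT had few counts there, and the 6T-CEM value no longer passed the threshold with DESeq2 (-1.65), without sh-NC replicate 1 (-1.41) or without sh-LDB1 replicate 1 (-1.27).

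The largest changes among the 9 genes were those of IGLL1. It fell from 334 and 308 CPM to 46.4 and 50.7 CPM in 6T-CEM, and from 572 and 616 CPM to 12.8 and 10.9 CPM in J.gamma1. J.gamma1 thus had the higher level with sh-NC and the lower level with sh-LDB1. The log2 fold change was -2.72 (SE 0.07) in 6T-CEM, with the control level 6.59 times the knockdown level, and -5.64 (SE 0.08) in J.gamma1, with the control level 50.03 times the knockdown level. In rank among protein-coding genes, IGLL1 went from 77 to 719 in 6T-CEM, and J.gamma1 took it from 30 to 3212.

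Sequence relatives could in principle take or give reads of IGLL1. Of its 50-base windows, 9.35% occur in transcripts of IGLL3P, ENSG00000285968, IGLL5, IGLC1, ENSG00000234353, ENSG00000290958 or GUSBP11. IGLL3P, IGLL5 and IGLC1 had 5 counts or fewer in every library and ENSG00000234353 had 8 to 20. GUSBP11, which holds 17 of the 834 windows, had 202 to 474 counts. Its level was 6.85 to 12.2 CPM in the J.gamma1 sh-LDB1 libraries, of the order of IGLL1 itself there. No counts were found for ENSG00000285968 and ENSG00000290958, which hold 60 and 17 of the windows, and the part of shared reads in the IGLL1 values was not tested.

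CD1A, the cortical marker of the family, stood at 7.27 and 7.71 CPM with sh-NC and 1.78 and 2.1 CPM with sh-LDB1 in 6T-CEM. In J.gamma1 it stood at 33.2 and 32.1 CPM with sh-NC and 15.4 and 15.9 CPM with sh-LDB1. It fell in both lines, with log2 fold changes of -1.94 (SE 0.22) and -1.06 (SE 0.09). CD1D, the natural killer T-cell ligand, fell from 2.54 and 2.26 CPM to 1.03 and 1.15 CPM in 6T-CEM (-1.13, SE 0.32) and from 19.7 and 22.0 CPM to 9.32 and 10.0 CPM in J.gamma1 (-1.10, SE 0.12). In 6T-CEM CD1D had 66 counts or fewer in each library, and its value did not pass the threshold with DESeq2 (-1.13) or in any of the 4 fits that left out 1 library (-1.22 to -1.04).

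CD1B did not pass the test in either line. Its levels were 2.31 and 1.78 CPM with sh-NC and 1.34 and 1.05 CPM with sh-LDB1 in 6T-CEM, a log2 fold change of -0.77 (SE 0.34). In J.gamma1 they were 34.3 and 33.0 CPM with sh-NC and 31.2 and 30.1 CPM with sh-LDB1, and the log2 fold change was -0.13 (SE 0.08). All sh-LDB1 libraries lay under all sh-NC libraries of the same line, in 6T-CEM with 60 counts or fewer in each, but with 2 libraries against 2 this order alone does not show a fall.

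CD1C and CD1E had opposite signs in the 2 lines. CD1C stood at 19.4 and 19.4 CPM with sh-NC and 14.5 and 15.9 CPM with sh-LDB1 in 6T-CEM, a log2 fold change of -0.35 (SE 0.12), and at 3.50 and 5.01 CPM with sh-NC and 6.54 and 8.31 CPM with sh-LDB1 in J.gamma1, a log2 fold change of 0.81 (SE 0.22). CD1E, the family member with the highest level in J.gamma1, fell from 15.3 and 13.9 CPM to 9.39 and 7.58 CPM in 6T-CEM (-0.78, SE 0.15) and rose from 108 and 105 CPM to 126 and 132 CPM in J.gamma1 (0.28, SE 0.05). The sh-NC and sh-LDB1 libraries of a line did not overlap for either gene. The CD1C value in 6T-CEM did not pass the threshold with DESeq2, without the filter on low counts, in a fit of all 8 libraries or without any 1 library (-0.42 to -0.28), and in J.gamma1 it did not pass without sh-NC replicate 1 (0.57) or sh-LDB1 replicate 2 (0.63).

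As a family, the CD1 genes summed to 20.8 ± 0.559 RPKM with sh-NC and 12.3 ± 0.163 RPKM with sh-LDB1 in 6T-CEM. In J.gamma1 the sums were 96.9 ± 1.30 and 94.2 ± 2.11 RPKM, where the sh-LDB1 libraries (92.7 and 95.7) both lay under the sh-NC libraries (97.8 and 96.0). The composition moved at the same time. CD1A made up 19.98 ± 1.38% of the CD1 sum with sh-NC and 8.75 ± 1.12% with sh-LDB1 in 6T-CEM, and 18.6 ± 0.198% and 9.17 ± 0.0177% in J.gamma1. The leading gene stayed CD1C in 6T-CEM, at 38.4 ± 1.05% and 50.9 ± 4.09%, and CD1E in J.gamma1, at 49.7 ± 0.396% and 61.9 ± 0.615%. The CD1 transcripts share few 50-base windows with each other (3.01% for CD1A, 3.80% for CD1B, 2.09% for CD1E, 0.268% for CD1D and 0% for CD1C).

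**Figure D3:**
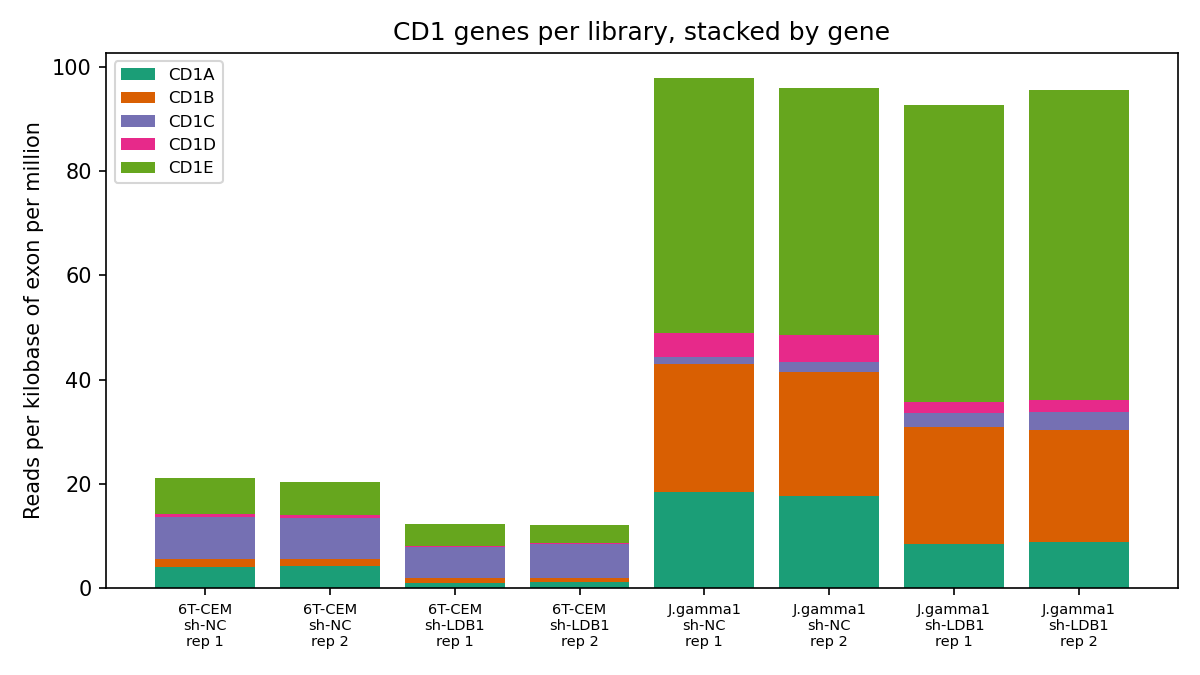
RPKM (CPM per kilobase of exon) of CD1A to CD1E, stacked, in each of the 8 libraries. The stack is 20.4 to 21.1 in 6T-CEM sh-NC, 12.2 to 12.4 in 6T-CEM sh-LDB1, 96.0 to 97.8 in J.gamma1 sh-NC and 92.7 to 95.7 in J.gamma1 sh-LDB1, and the CD1A part is smaller in all sh-LDB1 libraries of a line.

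The change was also compared between the lines, as J.gamma1 minus 6T-CEM on the log2 scale. Of the 9 genes, 5 differed at an adjusted p under 0.05, where 24.4% of all 18552 genes tested differed. These were RAG1 (1.58, SE 0.07), IGLL1 (-2.93, SE 0.11), CD1A (0.88, SE 0.19), CD1C (1.16, SE 0.25) and CD1E (1.06, SE 0.13). RAG1 and IGLL1 moved further in J.gamma1, in opposite directions, while CD1A moved further in 6T-CEM. The differences of RAG2 (-0.31, SE 0.18), DNTT (0.44, SE 0.31), CD1B (0.64, SE 0.23) and CD1D (0.03, SE 0.23) did not pass. LDB1 itself was lowered less in J.gamma1, and the part of the knockdown's depth in these differences was not tested.

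After the cut by RAG, the broken ends are joined by the non-homologous end joining machinery. A list of 15 genes held that machinery and also HMGB1, HMGB2, DNTTIP1 and DNTTIP2, which are not end joining factors themselves. The counts are those of the whole list. In 6T-CEM 2 rose, 1 fell and 12 did not pass, with a median log2 fold change of 0.04. In J.gamma1 6 rose, 4 fell and 5 did not pass, with a median of 0.18, against a median over all genes of 0.00 in either line. Of all genes tested, 15.1% rose and 16.2% fell in 6T-CEM and 25.0% and 26.5% in J.gamma1. The counts for this list and for the lists below are to be read beside these shares. LIG4, the ligase that seals the ends, fell in both lines (log2 fold change -1.45, SE 0.08, adjusted p = 2.31e-08 in 6T-CEM and -0.98, SE 0.09, adjusted p = 8.41e-06 in J.gamma1). HMGB2, a DNA-bending cofactor of RAG cleavage, rose by 0.76 (SE 0.05) in 6T-CEM and 0.21 (SE 0.04) in J.gamma1. PRKDC, the catalytic subunit of DNA-dependent protein kinase, rose in J.gamma1 (0.38, SE 0.05) and stood at -0.19 (SE 0.09, adjusted p = 0.135) in 6T-CEM. ATM, a kinase that senses the breaks, rose in 6T-CEM (0.34, SE 0.10), and in J.gamma1 PAXX, a scaffold of the joining complex, rose (0.51, SE 0.09) while the polymerase POLM fell (-0.50, SE 0.08).

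Factors known to act at the RAG and DNTT loci were taken as a list of 19, of which 18 were tested in each line. In 6T-CEM 6 rose, 6 fell and 6 did not pass (median -0.04), and in J.gamma1 11 rose, 5 fell and 2 did not pass (median 0.25). The inhibitors of E proteins rose together: ID2 went from 2.04 and 1.41 to 7.34 and 5.10 CPM in 6T-CEM and from 4.41 and 4.18 to 24.3 and 27.1 CPM in J.gamma1 (log2 fold changes 1.85, SE 0.27 and 2.59, SE 0.13). ID1 rose by 0.87 (SE 0.14) and 1.503 (SE 0.09) and ID3 by 0.72 (SE 0.09) and 2.52 (SE 0.06). The E protein genes they act on moved less, TCF12 by 0.16 (SE 0.06) and 0.43 (SE 0.04), and TCF3 (E2A) did not pass in either line (-0.07 and 0.01, SE 0.06 and 0.04). MYB, a factor of early thymocytes, fell from 721 and 710 to 375 and 366 CPM in 6T-CEM and from 708 and 660 to 108 and 112 CPM in J.gamma1 (-0.94, SE 0.05 and -2.63, SE 0.05). GATA3 (-0.54, SE 0.06 and -0.33, SE 0.06), RUNX1 (-0.33, SE 0.05 and -0.97, SE 0.05) and ETS1 (-0.26, SE 0.05 and -0.60, SE 0.04) fell in both lines too. Other genes of the list went up. BCL11B rose in both lines (0.42, SE 0.07 and 0.25, SE 0.06). In J.gamma1 FOXO1 (0.42, SE 0.11), FOXP1 (0.28, SE 0.07), ELF1 (0.31, SE 0.06) and EBF1 (0.84, SE 0.21) rose. Of these, FOXO1, FOXP1 and ELF1 did not pass in 6T-CEM and EBF1 was not tested there. TCF3, TCF12, GATA3, RUNX1 and ETS1 are no part of the ranked choice of named genes. They were added after their values were seen, because the promoter sequences above and the ID genes refer to them. BCL11B, FOXO1, FOXP1 and ELF1 also fall outside that choice and were added after their values were seen, because they rose.

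IGLL1 works with VPREB1 in pre-B cells, while its counterpart in T cells, the pre-T-cell receptor alpha chain, is encoded by PTCRA. Of 14 such pre-receptor genes, 11 were tested in each line. In 6T-CEM 6 rose, 2 fell and 3 did not pass (median 0.35), and in J.gamma1 7 rose, 3 fell and 1 did not pass (median 0.21). Setting IGHM to 3 counts where its libraries had at most 3 left both medians as they were. VPREB1 fell in 6T-CEM, from 35.3 and 33.9 to 15.4 and 16.7 CPM (-1.10, SE 0.10, adjusted p = 1.34e-06), and in J.gamma1 it had 12, 6, 0 and 3 counts in the 4 libraries and was not tested. PTCRA rose in both lines, from 0.654 and 1.52 to 3.77 and 5.70 CPM in 6T-CEM and from 1.80 and 2.50 to 7.82 and 9.20 CPM in J.gamma1 (2.12, SE 0.38 and 1.99, SE 0.22). The CD3 chains CD3E (0.63, SE 0.05 and 0.94, SE 0.04) and CD3G (0.49, SE 0.07 and 1.15, SE 0.06) also rose in both. CD3D went the other way in J.gamma1, where it fell (-0.21, SE 0.05), and rose in 6T-CEM (0.35, SE 0.05). The signaling chains of the B-cell receptor differed from each other. CD79A rose by 0.74 (SE 0.09) in 6T-CEM and 0.20 (SE 0.06) in J.gamma1, while CD79B fell in 6T-CEM (-0.99, SE 0.21) and stood at -0.39 (SE 0.21, adjusted p = 0.143) in J.gamma1. IGHM passed the test in both lines on few counts, 1, 2, 14 and 25 in 6T-CEM and 0, 3, 9 and 15 in J.gamma1.

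CD1 proteins need beta-2-microglobulin, chaperones, lipid transfer proteins and sorting adaptors. Of 14 genes for these steps, 12 were tested in 6T-CEM, where 2 rose, 3 fell and 7 did not pass (median -0.04), and 13 in J.gamma1, where 4 rose, 5 fell and 4 did not pass (median -0.15). AP2M1, a subunit of the adaptor that takes CD1 proteins up from the surface, fell in both lines (-1.11, SE 0.06 and -1.32, SE 0.05), as did the chaperone CALR (-0.63, SE 0.05 and -1.41, SE 0.04). B2M rose by 0.30 (SE 0.05) in 6T-CEM and 0.21 (SE 0.04) in J.gamma1. Of the lipid transfer protein genes, GM2A stood at 0.14 (SE 0.06, adjusted p = 0.0778) in 6T-CEM and fell by 1.69 (SE 0.06) in J.gamma1, and NPC2 rose by 0.49 (SE 0.12) in 6T-CEM and fell by 0.42 (SE 0.08) in J.gamma1. PSAP stood at -0.08 (SE 0.05, adjusted p = 0.276) in 6T-CEM and rose by 0.28 (SE 0.04) in J.gamma1. PDIA3, a partner of CALR, rose in J.gamma1 (0.49, SE 0.05).

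Other genes of the thymocyte stages that the 9 genes mark were read from 3 lists. Of 11 early thymocyte and progenitor markers, 8 were tested in 6T-CEM, of which 1 rose, 4 fell and 3 did not pass (median -1.10), and 6 in J.gamma1, of which all 6 fell (median -1.22). LYL1, an early hematopoietic factor, fell from 45.5 and 44.7 to 12.2 and 11.7 CPM in 6T-CEM and from 8.91 and 7.35 to 1.39 and 1.76 CPM in J.gamma1 (-1.91, SE 0.10 and -2.35, SE 0.22). HHEX fell in both lines too (-1.62, SE 0.08 and -1.23, SE 0.25), SPI1 (-1.84, SE 0.45) and LMO2 (-0.70, SE 0.16) fell in 6T-CEM, and FLT3 (-1.24, SE 0.43) and KIT (-1.21, SE 0.21) in J.gamma1. SPI1 and FLT3 had few counts, 33, 47, 12 and 12 for SPI1 in 6T-CEM and 50, 37, 20 and 13 for FLT3 in J.gamma1. The 1 gene that rose in 6T-CEM was MEF2C, from 138 to 196.5 CPM on average (0.52, SE 0.06), and it was not tested in J.gamma1. LMO2, known as a partner of LDB1, was not tested in J.gamma1.

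Of 9 cortical thymocyte markers other than CD1A, 6 rose and 1 fell in 6T-CEM (median 0.44) and 6 rose and 2 fell in J.gamma1 (median 1.19). CD4 rose by 1.32 (SE 0.08) and 2.19 (SE 0.13) and CD8A by 0.44 (SE 0.09) and 2.25 (SE 0.23), whereas ARPP21 fell in both lines (-0.59, SE 0.06 and -0.98, SE 0.06). CCR9 had 2, 0, 14 and 12 counts in 6T-CEM and 13, 15, 43 and 37 in J.gamma1, and passed in both (the 6T-CEM median stays at 0.44 with 3 counts set for the sh-NC group). AQP3 rose in 6T-CEM (0.15, SE 0.05) and fell in J.gamma1 (-0.68, SE 0.06). CD1A thus fell in the same libraries in which most other genes of the cortical list, by number, rose. The list summed to 753 to 762 CPM with sh-NC and 878 to 891 CPM with sh-LDB1 in 6T-CEM. In J.gamma1 the sum was lower after knockdown, at 615 to 624.5 CPM with sh-NC and 527 to 528 CPM with sh-LDB1. With sh-NC there, CD4 and CD8A stood at 5.13 and 1.31 CPM, and ARPP21 and AQP3, which fell, at 223 and 130 CPM. Of 9 late thymocyte and mature T-cell markers, 2 rose and 3 fell in 6T-CEM (median -0.13) and 3 rose and 3 fell in J.gamma1, where the median was 1.41, the value of CD44, which did not pass. CD69 (-0.70, SE 0.17 and -1.25, SE 0.14) and S1PR1 (-0.88, SE 0.11 and -1.17, SE 0.13) fell in both lines and CD52 rose in both (0.83, SE 0.12 and 1.45, SE 0.15). CCR7 fell in 6T-CEM (-0.94, SE 0.11), IL7R rose by 0.34 (SE 0.07) and 1.75 (SE 0.09), and CD28 rose in J.gamma1 (1.47, SE 0.06).

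**Figure D4:**
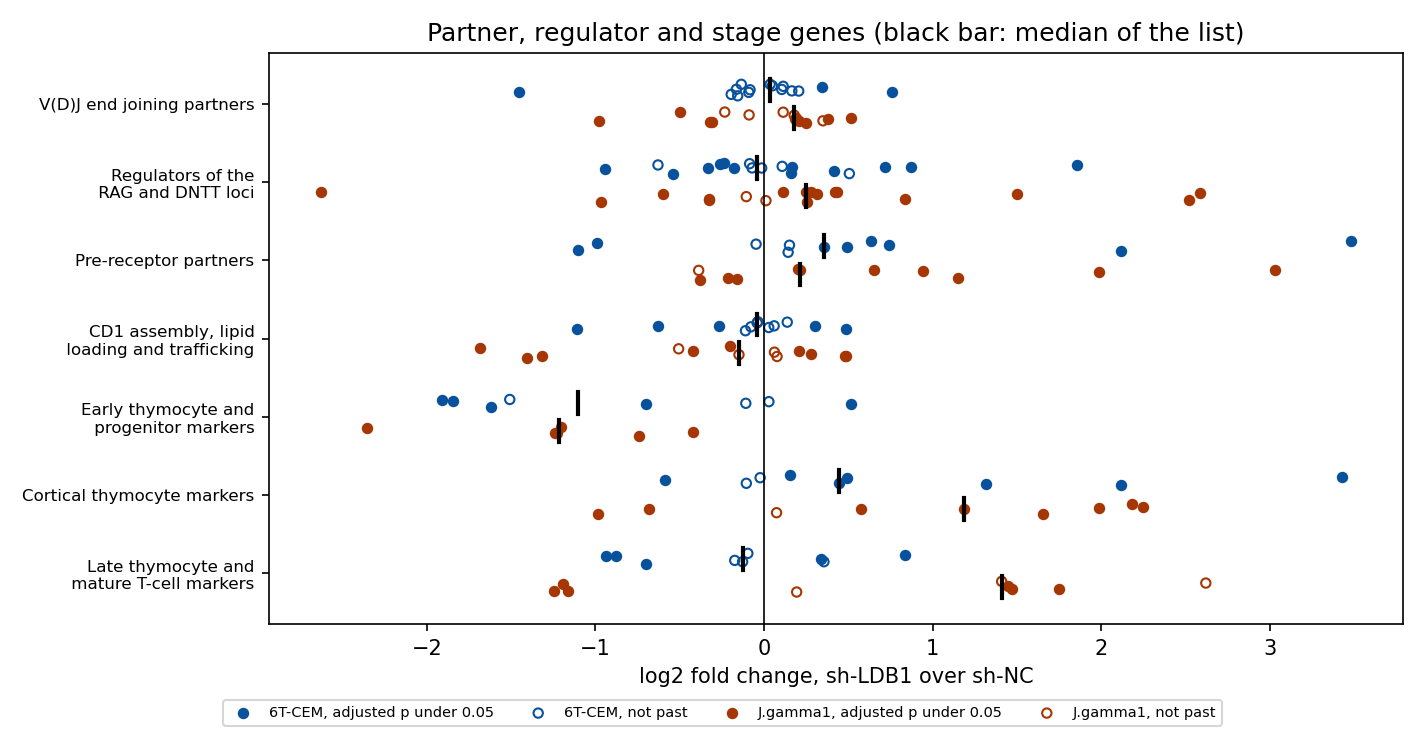
Log2 fold change of sh-LDB1 over sh-NC for each tested gene of 7 gene lists, in 6T-CEM (blue) and J.gamma1 (brown). Filled points passed an adjusted p under 0.05, open points did not, vertical jitter only separates points, and black bars are list medians. The early markers have medians of -1.10 and -1.22 and the cortical markers of 0.44 and 1.19, while the end joining list lies near 0.

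Genes within 500 kb of the 4 loci were compared with the 9 genes themselves. The counts at each locus are to be read beside the shares of all genes tested. These were 15.1% that rose and 16.2% that fell in 6T-CEM and 25.0% and 26.5% in J.gamma1. Beside IGLL1, 21 neighbors were tested in 6T-CEM, of which 3 rose, 3 fell and 15 did not pass, and 22 in J.gamma1, of which 3 rose, 6 fell and 13 did not pass. The long non-coding RNA ENSG00000272733, whose start is 3.56 kb from that of IGLL1 and which ends 577 bases before it on the same strand, was counted 66 and 86 times in the control libraries and 19 and 15 times after knockdown in 6T-CEM. The J.gamma1 libraries held 327 and 350 of its reads in the controls and 5 and 0 after knockdown. It fell in both lines, as IGLL1 did, with log2 fold changes of -2.27 (SE 0.35, adjusted p = 0.000184) and -6.87 (SE 0.51, adjusted p = 1.29e-05). Transcription that runs on between the 2 genes cannot be told apart from separate transcripts in gene counts. RGL4, 108 kb away, went the other way, from 16.4 and 13.8 to 27.2 and 26.4 CPM in 6T-CEM (0.83, SE 0.12) and from 1.01 and 1.14 to 15.5 and 16.8 CPM in J.gamma1 (3.91, SE 0.18). The BCR gene, 401 kb away, fell by 0.63 (SE 0.05) in J.gamma1 and stood at -0.13 (SE 0.06, adjusted p = 0.0989) in 6T-CEM.

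Around the RAG genes 4 neighbors were tested in each line. TRAF6, which starts 0.1 kb from the first RAG1 start, stood at 26.5 and 29.7 CPM with sh-NC and 35.2 and 37.2 CPM with sh-LDB1 in 6T-CEM (0.37, SE 0.09, adjusted p = 0.00779). In J.gamma1, where RAG1 rose 9.35-fold, TRAF6 stood at 35.0 and 32.9 CPM with sh-NC and 34.3 and 35.2 CPM with sh-LDB1 (0.04, SE 0.08, adjusted p = 0.709). The last RAG1 transcript starts 57.6 kb after the first, and gene counts cannot tell which start was used. PRR5L and IFTAP rose in J.gamma1 (1.34, SE 0.44 and 1.33, SE 0.40), each from 44 counts or fewer. IFTAP shares 372 exon bases with RAG2 on the opposite strand, and the part of shared reads in its rise was not tested. Around DNTT, 3 of 6 neighbors rose and 1 fell in 6T-CEM and 1 of 9 rose and 2 fell in J.gamma1, among them PIK3AP1, which fell in 6T-CEM (-1.36, SE 0.15, adjusted p = 9.44e-06) and stood at -0.15 (SE 0.09, adjusted p = 0.179) in J.gamma1. Around the CD1 cluster 1 of 3 neighbors rose in 6T-CEM. In J.gamma1 2 of 4 rose, and ENSG00000176320 and ENSG00000229914, 25.9 kb and 18.1 kb from the start of CD1D, did so by 1.04 (SE 0.16) and 0.87 (SE 0.16) while CD1D fell.

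**Figure D5:**
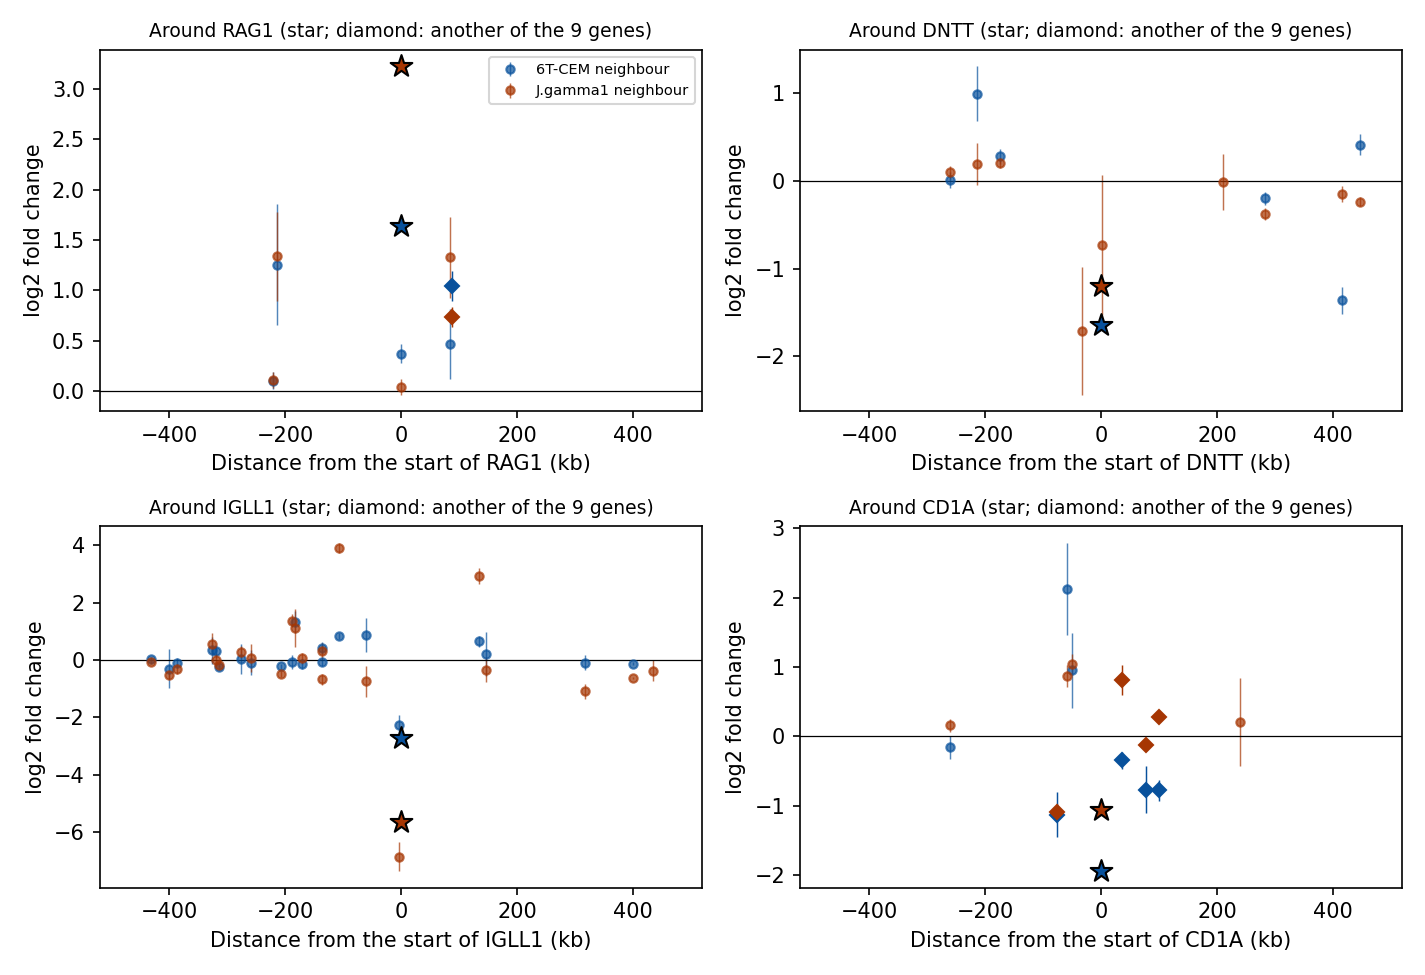
Log2 fold change (points, with standard errors as bars) of genes tested within 500 kb of the start of RAG1, DNTT, IGLL1 and CD1A, against distance in kb along the gene's own strand. Stars are the named gene, diamonds other genes of the 9. Beside IGLL1 the neighbor at -3.56 kb lies at -2.27 in 6T-CEM and -6.87 in J.gamma1. Beside RAG1, with distances taken from its first annotated start, the neighbor at -0.1 kb lies at 0.37 and 0.04.

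The protein-coding genes whose log2 CPM tracked each of the 9 genes most closely over the 8 libraries were also listed, among 13462 genes. The 8 points share the difference between the lines, so the Pearson correlations are a description. RAG1 was closest to HSP90B1 (r = 0.997) and DAZAP2, RAG2 to EFNB1 (r = 0.991) and TMCC1, and IGLL1 to FADS2 (r = 0.997) and PITHD1. HSP90B1 changed by 0.49 and 1.11 and FADS2 by -0.55 and -1.003 on the log2 scale in 6T-CEM and J.gamma1, far less than RAG1 and IGLL1. CD1A was closest to HES6 (r = 0.999), whose log2 fold changes of -1.80 and -1.07 lay near those of CD1A, and then to ZNF747. DNTT was closest to RPS6KA1 and PIAS3, CD1B to SHISA2 and IGSF3, CD1C to ACBD6 and NOL10, CD1D to ACSF2 and CXCR4, and CD1E to AMPD3 and HSPB1, with r between 0.992 and 0.999.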

How the data were processed

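RNA was measured in 8 libraries, 2 per group. Reads were mapped by the authors with HISAT2 2.2.0 on hg38, and StringTie gave the gene values. The deposited tables, 1 per line, hold raw counts as whole numbers, not pooled over replicates. The annotation release, the strand setting and the treatment of reads with several matches are not given in the sources used here. Each table has 64252 genes, of which 56105 were matched to a symbol and 8147 were not. Depth was 26160492 to 30604977 counts per library, and the median standard error of a log2 fold change was 0.12 to 0.13.

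Each line was fitted by itself with edgeR 4.0.16 (R 4.3.3, limma 3.58.1): TMM normalization, filterByExpr, robust quasi-likelihood test, Benjamini-Hochberg adjustment over all genes tested. Calls needed an adjusted p under 0.05, and, where said, a log2 fold change beyond 1 either way. The difference between lines was the interaction in a fit of all 8 libraries. CPM used TMM library sizes over the 8 libraries, and RPKM the union of exons. Steps were tested on simulated data, with large changes set in well-counted genes only. That test does not cover genes with few counts or small changes. Alternatives were DESeq2 1.42.0 and its size factors, other filters, a replicate block, a joint fit, no fold threshold, other lengths and leaving out 1 library. Figures were drawn with Python 3.11.15 and matplotlib 3.10.9.

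The 9 genes and the gene lists were chosen with earlier results of these data known. Some genes of the lists are not reported here and enter no count or median. From each list up to 4 genes per line past the threshold were named, ranked by the size of the change, plus the genes of the identity check, neighbors within 500 kb and the 2 most similar protein-coding genes per member. CD79A, CD3D, PSAP and MEF2C were added after their values were seen. With 2 libraries against 2 an exact permutation test cannot go below p = 0.333, so none was used.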

Additional observations from a re-analysis of the deposited data

Results flagged for a closer look

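The changes below differed between the lines in the interaction test, given as the log2 fold change in J.gamma1 minus that in 6T-CEM. Standard errors lay between 0.05 and 0.25. Among the 9 genes these were RAG1 (1.58), IGLL1 (-2.93), CD1A (0.88), CD1C (1.16) and CD1E (1.06), for which the values are a description.

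Among 19 genes of the lists that were named by rank, the adjusted p of the difference ran from 6.23e-08 to 0.0317. The change was further up in J.gamma1, or less far down, for LIG4 (0.47), PRKDC (0.57), ID1 (0.63), ID3 (1.80), CD3G (0.65), CD3E (0.31), PDIA3 (0.52), CD4 (0.87), CD8A (1.80), CCR7 (1.13), CD52 (0.61), IL7R (1.41) and CD28 (1.64). It was further down, or less far up, for HMGB2 (-0.56), MYB (-1.69), CALR (-0.78), NPC2 (-0.91), GM2A (-1.83) and ARPP21 (-0.40). Over all genes of the lists, 6 passed the test in opposite directions in the 2 lines. IKZF1 and SATB1 fell in 6T-CEM and rose in J.gamma1, and TCF7, CD3D, NPC2 and AQP3 rose in 6T-CEM and fell in J.gamma1. Of these, IKZF1, SATB1, TCF7, CD3D and AQP3 fall outside the ranked choice of named genes and were added after their values were seen. LDB1 was lowered to different degrees in the 2 lines, and the part of that in these differences was not tested.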

How the results depend on the processing

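In 6T-CEM 824 genes passed both thresholds, 531 with DESeq2, 5023 without the fold threshold and 690 to 721 with 1 library left out. In J.gamma1 there were 2386, 8870 without the fold threshold and 2062 to 2390 with 1 library left out. Of the 9 genes, 6 in 6T-CEM passed both thresholds (4 to 5 with 1 library left out), and 5 in J.gamma1 (8 without the fold threshold, 5 to 6 with 1 library left out). Of the pre-receptor genes in J.gamma1, 10 passed, and 6 to 9 with 1 library left out, the lowest without sh-LDB1 replicate 2. The difference between the lines passed for 4524 genes, and for 3574 to 4028 with 1 library left out.

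For the 9 genes, 74 of 90 alternative values in 6T-CEM kept direction and side of the threshold, 15 lost the call (DNTT, CD1C and CD1D) and 1 gained it (CD1B, -0.77 in the fit of all 8 libraries). In J.gamma1 88 of 90 did and 2 lost the call, both of CD1C. Of 117 values of the difference 109 did, 4 of CD1B gained the call and 4 of CD1D turned sign. The CD1D difference of 0.03 ran from -0.048 to 0.126 with 1 library left out and was negative without 6T-CEM sh-NC replicate 1 or sh-LDB1 replicate 1 and without J.gamma1 sh-NC replicate 1 or sh-LDB1 replicate 2. The causes were not tested. With exon length taken from the longest transcript, control RPKM in 6T-CEM and J.gamma1 moved to 14.5 and 5.47 for RAG1, 3.83 and 7.38 for RAG2, 0.634 and 5.50 for CD1D and 7.61 and 55.3 for CD1E. With DESeq2 size factors RAG1 in J.gamma1 was 4.69 and CD1C in 6T-CEM 7.93.

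With the replicate number as a block, 801 genes passed in 6T-CEM and 2240 genes passed in J.gamma1 at both thresholds, and no call of the 9 genes changed in either line. Deviations of same-numbered libraries correlated at -0.02 in 6T-CEM and 0.09 in J.gamma1, so the numbers were not shown to pair the libraries. DNTT, CD1B and CD1D had 66 counts or fewer in every 6T-CEM library, which limits the precision of their changes there.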
